A study of Mus musculus with 2 samples.

Results

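The genes described here encode the proteins that carry the signal from Toll-like receptor 4 (TLR4) to its transcription factors, and those that restrain it. They were named from textbook knowledge of the pathway as 46 genes, with earlier results of these data already known. The members were the rows of the deposited expression table that carry their symbols. The table lists 37451 genes, and 45 of the 46 symbols were found. *Otulin*, a deubiquitinase of linear chains, was listed under its older symbol *Fam105b*, at 9.72 FPKM (fragment counts divided by exon length and by library depth) in WT and 9.98 in ΔM, and was not counted as a member.

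The measurements are 2 control RNA-Seq libraries of bone marrow-derived macrophages (BMDMs), made beside a map of the binding sites of tristetraprolin (TTP, gene *Zfp36*), a protein that promotes the decay of AU-rich mRNAs. The WT library came from C57BL/6 mice, littermates of the second group. The ΔM library came from C57BL/6 TTP fl/fl LysMCre mice, in which Cre is driven by the lysozyme M locus and deletes TTP in myeloid cells. Donors of both groups were 7 to 9 weeks old, and the cells of both were grown in CSF-1 from L929 cells, labeled with 100 μM 4-thiouridine for 16 h and then given 10 ng/ml LPS for 6 h. No unstimulated library was analysed here, so the values describe stimulated cells only. With 1 library per genotype no difference has a replicate check, and no p-value is given. The libraries held about 37000000 fragments in WT and 32750000 in ΔM, as estimated from the steps between low FPKMs, and intervals below cover counting error only.

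LPS bound by LBP and CD14 reaches a complex of TLR4 and MD-2 (*Ly96*). The receptor recruits adaptors in pairs: TIRAP with MyD88 at the plasma membrane, and TRAM (*Ticam2*) with TRIF (*Ticam1*) in endosomes. MyD88 assembles IRAK kinases, which engage TRAF6, and ubiquitin chains then bring together the TAK1 complex and the IKK complex, which frees NF-κB, while TRIF acts through TRAF3, TBK1 and IKKε on interferon regulatory factors. Feedback proteins such as IRAK-M (*Irak3*), A20 (*Tnfaip3*), the A20-binding proteins of the *Tnip* genes and CYLD damp the cascade.

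TTP recognizes AU-rich elements, of which the heptamer TATTTAT, as written in DNA letters, is the core form. The following sequences show what that heptamer looks like in RNAs of this pathway. They are a selection, made mostly for sites that hold the heptamer, of stretches of 16 to 30 bases from the TTP crosslink sites recorded under member genes after 6 h or 3 h of LPS, read 5′ to 3′ on the strand of the gene (mm9), with every heptamer in capitals. The copies of the site lists used here held 37 pieces under 8 members, all equal to the mm9 genome at their positions. A heptamer stood in 11 of the 37 pieces and in at least 1 piece of 6 of the 8 members. Pieces at both times are counted, and some are shorter than a heptamer. The pieces of *Ripk2* and *Tab2*, and those of *Tnip3* outside the stretch shown, held 0 heptamers.
Tnip3, intron, chr6:65544626-65544655, plus strand, 6 h: ttttggattttTATTTATttaattaattaa
Tnip1, intron, chr11:54767155-54767184, minus strand, 6 h: actcttttgcgTATTTATTTATTTATTTAT
Tbk1, intron, chr10:120995009-120995038, minus strand, 6 h: ttcttttTATTTATTTATgtatatatttaa
Ly86, intron, chr13:37486235-37486259, plus strand, 3 h: tgtttaactgtTATTTATTTATtta
Birc3, intron, chr9:7857137-7857152, minus strand, 3 h: agaaattTATTTATtt
Peli1, 3′ UTR, chr11:21050278-21050297, plus strand, 3 h: ttttatttgcaattaattta

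The region names are those of the site lists. The stretch of *Birc3* lay, in the GENCODE M1 annotation of mm9, inside the longest 3′ UTR of the gene, although it is listed as intronic. The stretch of *Peli1* is AU-rich but holds no heptamer. The genes in the list all had lower FPKMs in ΔM than in WT, as did 29 of the 41 members compared further on.

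Heptamers in annotated 3′ UTRs were counted for comparison, using the longest annotated 3′ UTR of each gene. Heptamers were also found in members with higher FPKMs in ΔM, namely *Ube2n*, *Map3k7* and *Tab2*, at log2 ratios of 0.22, 0.19 and 0.01. Examples from 3 genes with lower FPKMs in ΔM show the heptamer in its surroundings, again in capitals.
Tnip3, chr6:65582469-65582495, plus strand: tttatgcagcTATTTATcggaaagata
Ikbkb, chr8:23771732-23771758, minus strand: caggtttttgTATTTATttcatgctta
Tollip, chr7:149068835-149068861, minus strand: tgtttataagTATTTATttttgtaagc

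The checks of the libraries concerned the targeted gene and the cell type. *Zfp36* had 65.3 FPKM in the WT library and 16.7 in the ΔM library, or 25.6% of the WT level, so the label of the ΔM library held but some *Zfp36* RNA was still counted. All 7 macrophage markers found in the table were at 1 FPKM or more in both libraries. Their sum was 3884 FPKM (WT) and 2754 FPKM (ΔM), and without *Lyz2*, the lysozyme M gene that carries the Cre, the other 6 summed to 1403 and 1398 FPKM. *Lyz2* itself, the highest of them, had 2481 FPKM (WT) and 1356 FPKM (ΔM). The markers of B cells, neutrophils, dendritic cells, fibroblasts and erythroid cells summed to at most 0.46 FPKM per list in either library. The highest of each of these lists was *Cd79b*, *Camp*, *Ccr7*, *Col3a1* and *Hba-a1*, in that order. The T cell list summed to 9.59 and 10.8 FPKM, nearly all of it *Lck*, while *Cd3e* was at 0 in both.

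The members were, on the whole, slightly less abundant in ΔM than in WT. Of the 45 members in the table, 41 reached a mean of 1 FPKM over both libraries, and these are the ones compared. Below that mean were *Lbp*, which carries LPS in plasma, at 0.11 and 0.05 FPKM, *Ticam2* at 1.0 and 0.62 FPKM, *Peli2*, a Pellino ubiquitin ligase, at 0.08 and 0.17 FPKM, and *Sigirr*, an inhibitory receptor, at 0.06 and 0.07 FPKM (WT first). The difference is given as a log2 ratio, log2((ΔM + 1)/(WT + 1)), so that a negative value means less in ΔM, and it understates differences of low genes. Of the 41, 29 were lower and 12 higher in ΔM, with a median of -0.12 and a middle range from -0.31 to 0.01. Over the 8078 protein-coding genes with the same minimum, 50.2% were lower and the median was 0.00 to 2 decimals. In bulk RNA, fewer cells of a kind and less RNA per cell cannot be told apart.

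**Figure D1:**
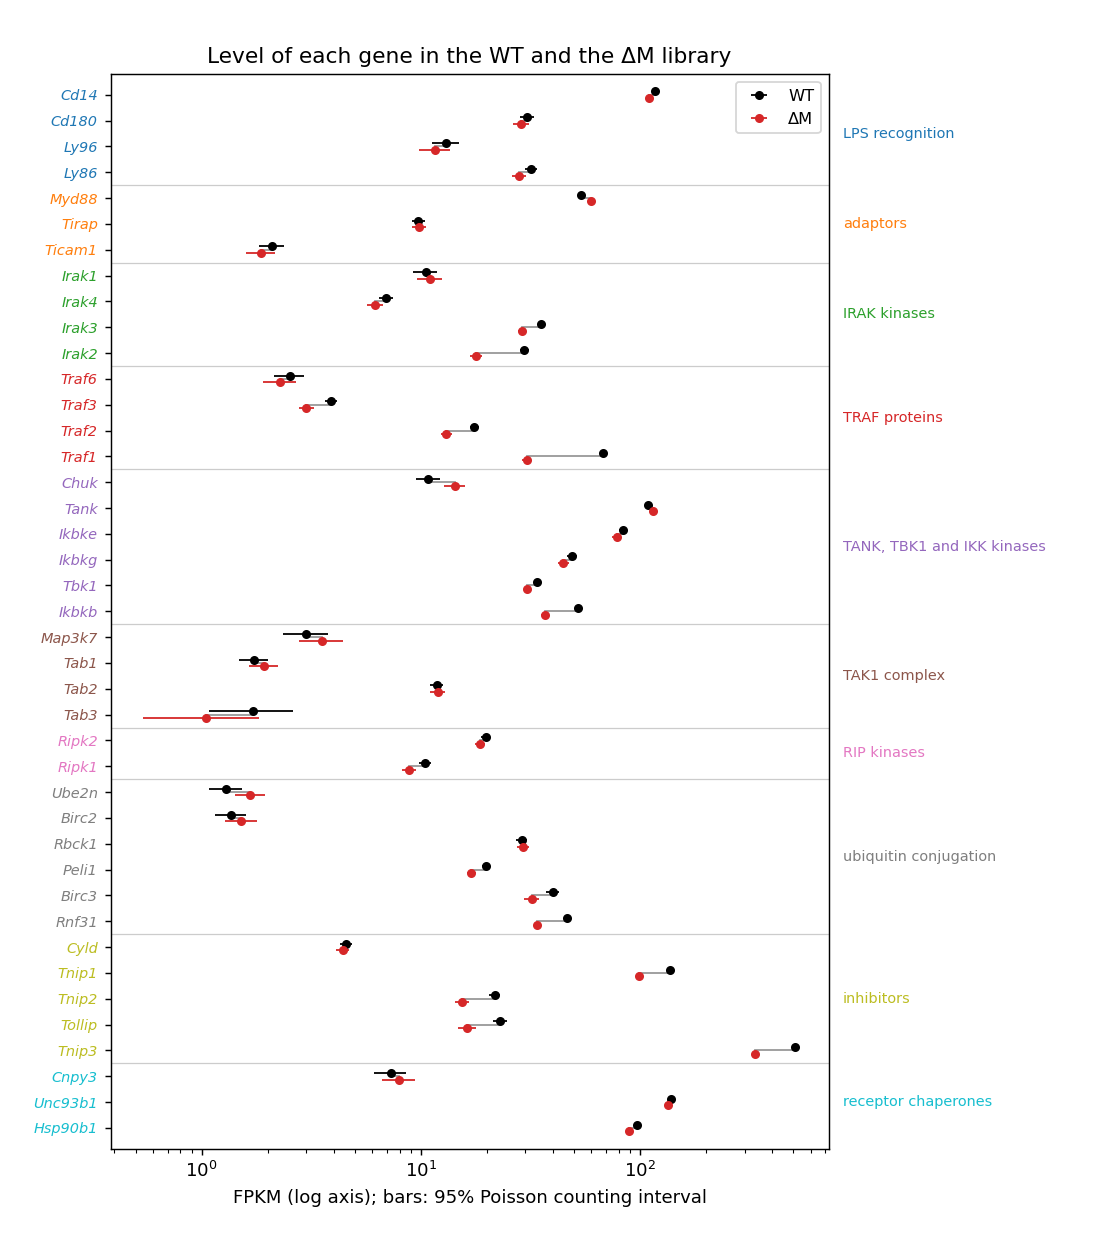
FPKM (horizontal log axis) of the 41 compared members in the WT library (black) and the ΔM library (red), grouped by role, with 95% Poisson counting intervals as bars and a gray line joining both values. The red point lies left of the black one for 29 of the 41 genes, and the widest gap is that of *Traf1*.

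On this scale the gene with the largest difference was *Traf1*, then *Irak2* and *Tnip3*. *Traf1*, which encodes an NF-κB-inducible adaptor of TNF receptors, was at 67.5 FPKM in WT (65.5 to 69.5) and 30.5 FPKM in ΔM (29.1 to 32.0), a log2 ratio of -1.12. *Irak2*, a kinase that sustains late signaling from MyD88, was at 29.6 FPKM in WT (28.3 to 31.0) and 17.9 FPKM in ΔM (16.8 to 19.1), a log2 ratio of -0.70. *Tnip3*, an A20-binding inhibitor of NF-κB, was the most abundant member, at 511.1 FPKM in WT (507.2 to 515.0) and 334.7 FPKM in ΔM (331.3 to 338.0), a log2 ratio of -0.61. The ΔM library thus held 45.2%, 60.4% and 65.5% of the WT level of these genes. The files place *Traf1* (ENSMUSG00000026875) at chr2:34797270-34817292 on mm9, *Irak2* (ENSMUSG00000060477) at chr6:113588461-113645003 and *Tnip3* (ENSMUSG00000044162) at chr6:65540392-65584034. In each of them the counting intervals of the libraries were well apart.

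On the scale with 1 FPKM added, these 3 of the 41 (7.32%) were at least 1.5-fold lower in ΔM, and 0 were at least 1.5-fold higher. The count of 3 depends on the added FPKM: *Tab3*, a low gene described further on, held 61.0% of its WT level in ΔM, a log2 ratio of -0.41 that became -0.66 with 0.1 FPKM added, which made 4. Among all 10765 genes that reached the same mean, 7.51% were at least 1.5-fold lower and 11.2% at least 1.5-fold higher. Among protein-coding genes the shares were 5.36% and 4.82%. The share of members at least 1.5-fold lower was therefore near the background. The compared members are protein-coding, so the shares of 5.36% and 4.82% are the fitting ones. Shares of that size make only a few genes among 41, so neither count was read as a difference from the background. Just inside the threshold was *Tnip3* (-0.61), and just outside it were *Ikbkb* (-0.49), *Tollip* (-0.48), *Tnip2* (-0.46) and *Tnip1* (-0.46).

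Where the 95% counting intervals of the libraries are compared instead, 17 members (41.5%) were wholly lower in ΔM, 3 (7.32%) wholly higher and 21 overlapped. Of the 7976 protein-coding genes with such an interval, 19.7% were wholly lower and 17.8% wholly higher. Interval width rests on the median annotated length, which for *Ikbkg* is 944 bases although its longest 3′ UTR alone has 5495. Longer transcripts would narrow the intervals, so some that overlapped might then be apart. Intervals also narrow with abundance, and 28 of the members averaged 10 FPKM or more. Of those 28, 15 (53.6%) were wholly lower and 3 (10.7%) wholly higher, against 26.8% and 21.4% of the protein-coding genes with the same mean. The 28 abundant members had a median log2 ratio of -0.15 with 22 lower, and the 13 less abundant ones a median of -0.05 with 7 lower. Genes of one pathway are not independent of each other, and a library-wide difference between these particular cultures was not tested.

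**Figure D2:**
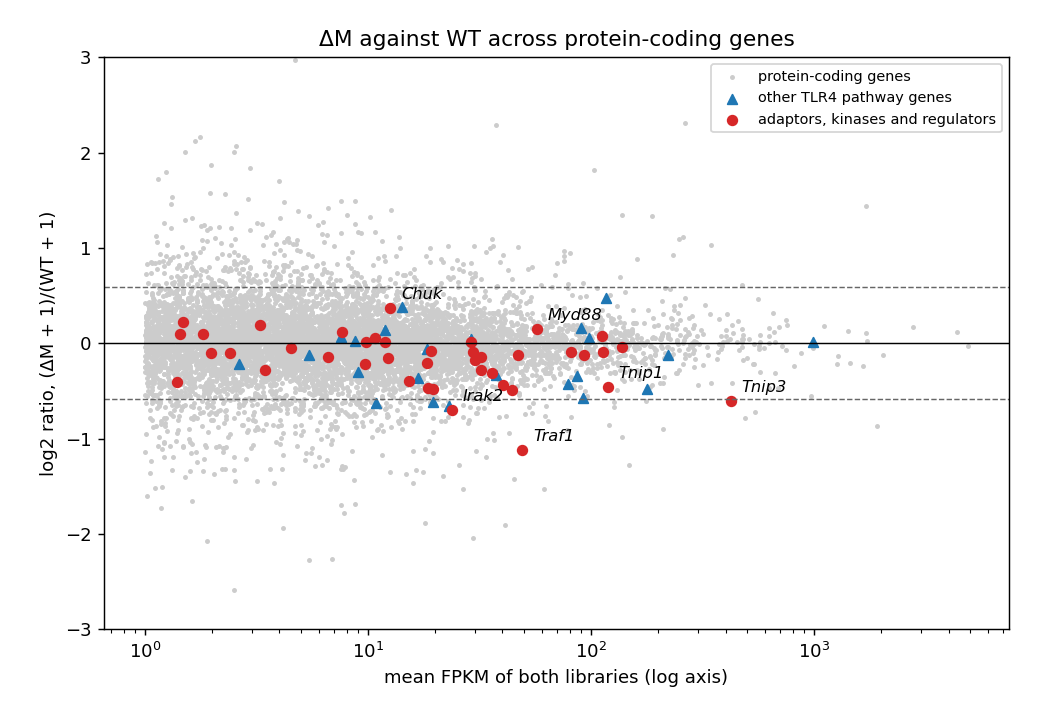
Log2 ratio of ΔM to WT (vertical axis) against the mean FPKM of both libraries (horizontal log axis) for protein-coding genes (gray), other TLR4 pathway genes (blue triangles) and the members (red), with dashed lines at 1.5-fold; 10 of the 8078 genes lie beyond 3 on the vertical axis and are not drawn. *Traf1*, at -1.12, lies farthest from 0 among the red points, and 0 red points reach the upper dashed line.

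At the receptor, the 4 genes of LPS recognition that were measured were all slightly lower in ΔM, with a median of -0.12. *Cd14*, which hands LPS to the receptor, was the highest of them, at 116.9 FPKM in WT (114.0 to 119.9) and 109.8 FPKM in ΔM (106.7 to 112.9). These intervals did not overlap, but the log2 ratio was only -0.09. *Ly96* was the lowest, at 13.0 FPKM in WT (11.2 to 15.0) and 11.6 FPKM in ΔM (9.82 to 13.6), and its intervals overlapped, as did those of the other 2 genes. *Cd180* and *Ly86*, which form the related RP105 and MD-1 complex, were at nearly equal levels to each other in each library, with 30.6 and 31.9 FPKM in WT and 28.6 and 28.2 FPKM in ΔM. *Tlr4* itself, not a member, went the other way, from 12.2 FPKM in WT to 16.3 FPKM in ΔM, a log2 ratio of 0.38. The level of *Cd14* was thus 9.55 times that of *Tlr4* in WT and 6.75 times in ΔM.

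The adaptors differed in level far more than between libraries. *Myd88* was at 53.9 FPKM in WT (52.1 to 55.8) and 59.9 FPKM in ΔM (57.9 to 62.0), a log2 ratio of 0.15 with intervals apart. *Tirap*, its bridging adaptor, was at 9.76 and 9.82 FPKM. *Ticam1* was at 2.09 FPKM in WT (1.82 to 2.39) and 1.87 FPKM in ΔM (1.60 to 2.17), and its intervals overlapped. *Myd88* therefore exceeded *Ticam1* 25.8-fold in WT and 32.0-fold in ΔM. The exons of *Myd88* overlap those of *Acaa1a* on the opposite strand over 67 bases, and *Acaa1a* was at 51.0 and 57.2 FPKM. The strand setting of the counting is not given in the sources used here. The low *Ticam2* shares 21.3% of its exon bases with *Tmed7* on the same strand, which makes its value uncertain.

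Among the IRAK kinases *Irak2* and *Irak3* were lower in ΔM, and the intervals of the others overlapped between the libraries. *Irak2* has been given above. *Irak3*, which encodes the inhibitory IRAK-M and was the highest of the 4, was at 35.4 FPKM in WT (34.2 to 36.7) and 28.9 FPKM in ΔM (27.7 to 30.2), a log2 ratio of -0.28. *Irak4*, the kinase that starts the cascade and the lowest of the 4, was at 6.96 FPKM in WT (6.45 to 7.505) and 6.20 FPKM in ΔM (5.68 to 6.75). In *Irak4*, 7.85% of the exon bases overlap *Twf1* on the opposite strand, at 2.35 and 4.53 FPKM. *Irak1* was at 10.5 and 10.98 FPKM. *Irak3* exceeded *Irak2* 1.20-fold in WT and 1.62-fold in ΔM, and *Irak2* exceeded *Irak1* 2.82-fold in WT and 1.63-fold in ΔM. In *Irak3*, 192 bases overlap *Tmbim4* on the opposite strand, which was at 122.2 and 106.5 FPKM.

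All 4 TRAF genes had lower values in ΔM, with a median of -0.34. After *Traf1* came *Traf2*, an adaptor of the TNF receptor, at 17.5 FPKM in WT (16.7 to 18.4) and 13.1 FPKM in ΔM (12.3 to 13.8), a log2 ratio of -0.40. *Traf3*, which connects TRIF to TBK1, was at 3.89 FPKM in WT (3.65 to 4.14) and 3.01 FPKM in ΔM (2.78 to 3.25). *Traf6*, the ligase downstream of MyD88, was at 2.52 FPKM in WT (2.15 to 2.94) and 2.28 FPKM in ΔM (1.91 to 2.71), and its intervals overlapped. *Traf1* was thus 26.8 times as abundant as *Traf6* in WT and 13.4 times in ΔM.

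The kinases of the NF-κB and interferon branches were abundant, and the catalytic IKK subunits went in opposite directions. *Ikbkb*, encoding IKKβ, was at 51.9 FPKM in WT (50.3 to 53.5) and 36.7 FPKM in ΔM (35.3 to 38.1), a log2 ratio of -0.49. *Chuk*, encoding IKKα, was at 10.8 FPKM in WT (9.53 to 12.2) and 14.3 FPKM in ΔM (12.7 to 16.0), a log2 ratio of 0.37, the highest of all members. Their intervals did not overlap between the libraries in either gene, and *Ikbkb* exceeded *Chuk* 4.80-fold in WT and 2.57-fold in ΔM. *Ikbkg*, which encodes the regulatory subunit NEMO, was at 48.9 and 44.8 FPKM. On the interferon side, *Tank*, a scaffold for TBK1 and the highest of the group, was at 108.7 FPKM in WT (106.2 to 111.2) and 115.0 FPKM in ΔM (112.3 to 117.7), a log2 ratio of only 0.08. *Ikbke* was at 83.6 and 78.3 FPKM with overlapping intervals, and *Tbk1* at 33.8 and 30.6 FPKM with intervals apart.

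The TAK1 complex was sparse, and in 0 of its 4 genes were the intervals apart at the median annotated lengths. *Tab2*, an adaptor that binds ubiquitin chains, was its highest gene, at 11.8 FPKM in WT (11.01 to 12.7) and 11.9 FPKM in ΔM (11.1 to 12.9). *Map3k7*, the kinase TAK1, was at 2.99 and 3.54 FPKM, and *Tab1*, its activator, at 1.73 and 1.92 FPKM. *Tab3*, a relative of *Tab2* and the lowest gene, was at 1.72 FPKM in WT (1.08 to 2.60) and 1.05 FPKM in ΔM (0.541 to 1.84). Its log2 ratio of -0.41 rests on about 22.1 and 11.9 fragments if the median annotated length of 546 bases holds. The longest 3′ UTR of *Tab3* alone has 3915 bases, and a longer transcript would mean more fragments and narrower intervals. Whether its intervals are apart is therefore uncertain. Of the RIP kinases, *Ripk1*, which acts below TRIF and the TNF receptor, was at 10.5 FPKM in WT (9.84 to 11.2) and 8.86 FPKM in ΔM (8.23 to 9.53). Its value is uncertain, because 34.3% of its exon bases are shared with *Gm17084* on the same strand (0.01 and 0.16 FPKM) and 3.93% with *Serpinb6a* on the opposite strand (26.2 and 33.0 FPKM). *Ripk2*, the kinase of NOD receptors, was at 19.8 FPKM in WT (18.9 to 20.7) and 18.6 FPKM in ΔM (17.7 to 19.5).

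Genes of ubiquitin conjugation divided evenly, with 3 lower, 3 higher and a median of -0.10. *Rnf31*, encoding HOIP, the catalytic subunit of the linear ubiquitin ligase, was the highest, at 46.4 FPKM in WT (45.1 to 47.6) and 33.9 FPKM in ΔM (32.8 to 35.0), a log2 ratio of -0.44. Its partner *Rbck1* (HOIL-1) was at 28.8 FPKM in WT (27.1 to 30.6) and 29.1 FPKM in ΔM (27.3 to 31.0), so that the ratio of *Rnf31* to *Rbck1* was 1.61 in WT and 1.16 in ΔM. *Birc3* (cIAP2) was at 40.0 FPKM in WT (37.4 to 42.7) and 32.1 FPKM in ΔM (29.6 to 34.7), and *Birc2* (cIAP1) at only 1.36 and 1.52 FPKM. *Peli1*, a Pellino ligase, was at 19.8 FPKM in WT (19.0 to 20.6) and 17.01 FPKM in ΔM (16.2 to 17.8). *Ube2n*, the E2 enzyme of K63-linked chains, was the lowest, at 1.29 FPKM in WT (1.08 to 1.53) and 1.67 FPKM in ΔM (1.42 to 1.95). For *Ube2n* 77.6% of 100-nt windows of its transcript had a unique place in mm9, whereas at least 93.5% did in each other member, and only uniquely mapped reads were counted.

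The inhibitors had a median of -0.46, the lowest of all roles at a minimum mean of 1 FPKM, and all 5 measured genes had lower values in ΔM. With a minimum mean of 10 FPKM the order of the roles turned, with -0.76 for the TRAF genes and -0.47 for the inhibitors. Of the TRAF genes only *Traf1* (-1.12) and *Traf2* (-0.40) then remained. *Tnip3* led in abundance and is given above. *Tnip1* was at 137.5 FPKM in WT (134.5 to 140.5) and 99.4 FPKM in ΔM (96.7 to 102.2), a log2 ratio of -0.46, and *Tnip2* at 21.7 FPKM in WT (20.5 to 23.0) and 15.4 FPKM in ΔM (14.3 to 16.6), also -0.46. The *Tnip* genes therefore kept nearly the same order of levels, with *Tnip1* exceeding *Tnip2* 6.34-fold in WT and 6.44-fold in ΔM. *Tollip*, which binds IRAK1 and holds it inactive, was at 23.0 FPKM in WT (21.3 to 24.7) and 16.2 FPKM in ΔM (14.7 to 17.8), a log2 ratio of -0.48. *Cyld*, a deubiquitinase and the lowest of the group, was at 4.58 FPKM in WT (4.30 to 4.88) and 4.40 FPKM in ΔM (4.11 to 4.71), with overlapping intervals. Summed over the 5 compared members, the level was 697.8 FPKM (WT) and 470.1 FPKM (ΔM). Most of this was *Tnip3*, at 511.1 FPKM (WT) and 334.7 FPKM (ΔM).

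The receptor chaperones, which fold and transport Toll-like receptors, differed little. *Unc93b1* was the highest, at 138.8 FPKM in WT (136.0 to 141.7) and 134.7 FPKM in ΔM (131.7 to 137.7), with overlapping intervals. *Hsp90b1* (gp96) was at 97.1 and 89.3 FPKM with intervals apart and a log2 ratio of -0.12, and 10.3% of its exon bases overlap a lincRNA gene, *1810014B01Rik*, on the opposite strand (1.31 and 1.12 FPKM). *Cnpy3* was the lowest, at 7.28 FPKM in WT (6.11 to 8.60) and 7.95 FPKM in ΔM (6.66 to 9.42).

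**Figure D3:**
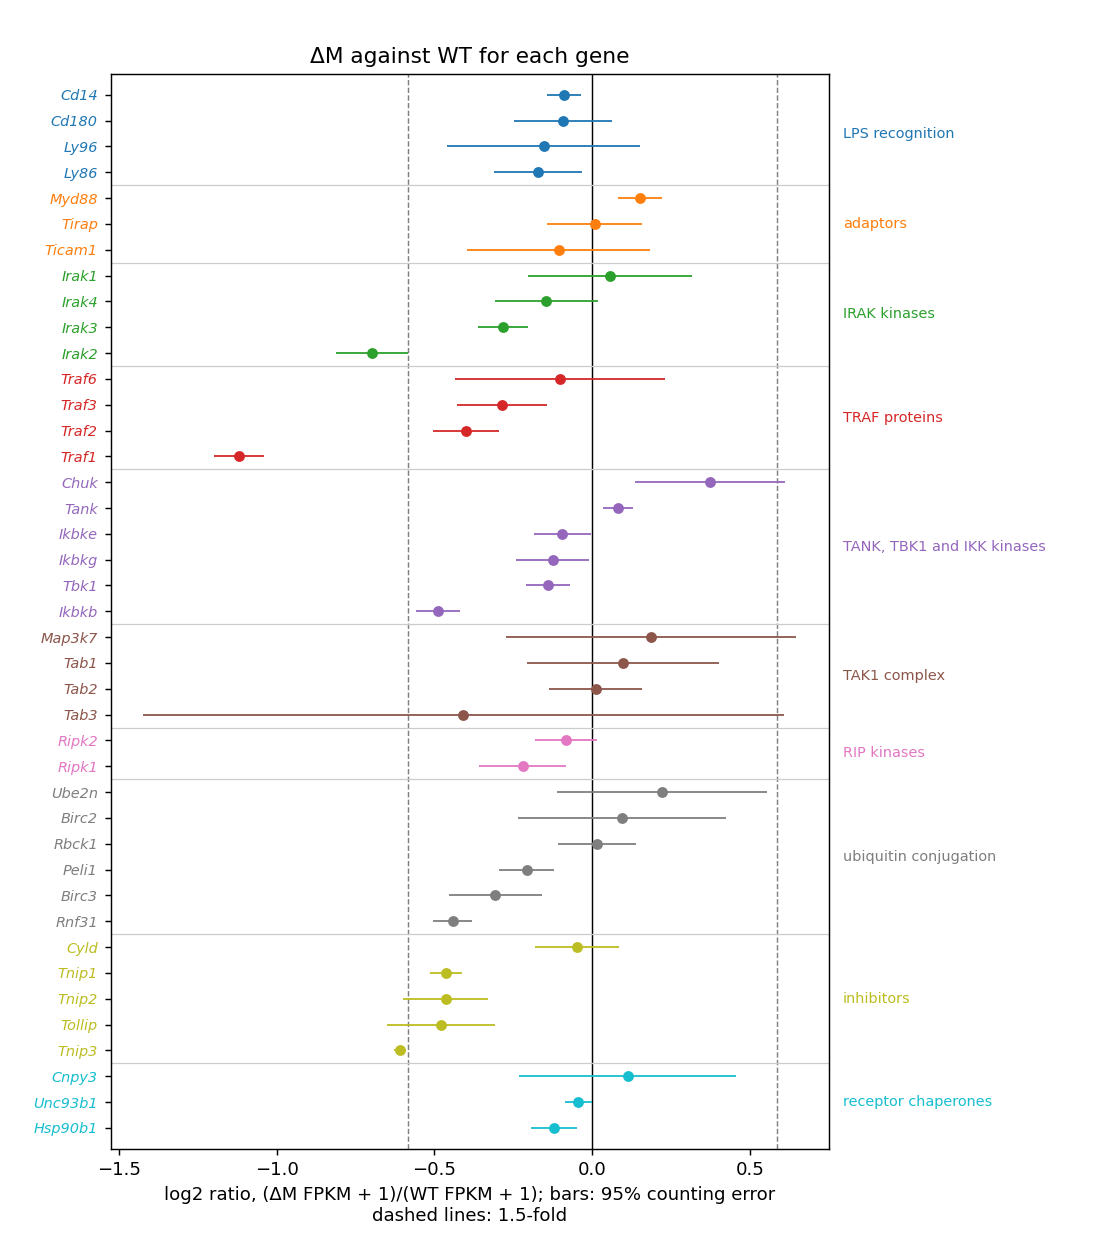
Log2 ratio of ΔM to WT (horizontal axis) of each member, by role, with bars of 95% counting error and dashed lines at 1.5-fold. All 5 inhibitors among the compared members and all 4 TRAF genes lie left of 0. *Otulin*, an inhibitor not counted as a member, is not drawn. Only *Traf1*, *Irak2* and *Tnip3* lie past the left dashed line.

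The rest of the pathway, listed as 24 genes of transcription factors, their inhibitors, kinases of the MAP kinase arm and the receptor, had a median of the same sign. Of the 23 that averaged 1 FPKM or more, 14 (60.9%) were lower and 9 higher in ΔM, with a median of -0.13. Among protein-coding genes with the same minimum, 50.2% were lower. With 1 FPKM added, at least 1.5-fold lower were *Nfkbib* (28.4 and 17.6 FPKM), *Nfkbie* (13.4 and 8.36 FPKM), both inhibitors of NF-κB, and *Relb* (23.8 and 15.2 FPKM), an NF-κB subunit, and 0 were at least 1.5-fold higher. Their log2 ratios were -0.66, -0.62 and -0.61. *Tnfaip3* (A20) was at 109.9 and 73.3 FPKM, 66.6% of the WT level, which is 1.5-fold lower on the deposited values but -0.58 with 1 FPKM added, just short of the threshold.

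Of the 3 members at least 1.5-fold lower in ΔM, *Tnip3* held a heptamer in its 3′ UTR and *Traf1* and *Irak2* did not. At least 1 heptamer was found in 14 of the 41 members (34.1%) and in 27.0% of the 7935 protein-coding genes with an annotated 3′ UTR and the same minimum. The 14 members with a heptamer had a median log2 ratio of -0.17, with 11 lower in ΔM, and the 27 without one a median of -0.11, with 18 lower. Among the protein-coding genes, 1053 of 2140 with a heptamer and 2929 of 5795 without one were lower in ΔM, with medians of 0.0025 and -0.0052. The 3′ UTRs of these 3 were 2932 bases (*Tnip3*, 1 heptamer), 2123 bases (*Traf1*, 0) and 1308 bases (*Irak2*, 0). The shorter pentamer ATTTA, which the heptamer contains, was found 3 times in *Tnip3*, 3 times in *Traf1* and 1 time in *Irak2*. Pentamers were not compared with the background. *Birc3* and *Ikbkg* held 3 each, with log2 ratios of -0.31 and -0.12. Those of *Birc3* lie around chr9:7857108-7857155, at the stretch listed above as intronic, in an annotated transcript of 5 exons. The gene, on the minus strand, reaches on to chr9:7848699. Whether the expressed transcripts of *Birc3* hold these heptamers was not tested. The members with a heptamer also had longer 3′ UTRs, with a median of 3139 against 1126 bases, and the part of length was not tested.

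**Figure D4:**
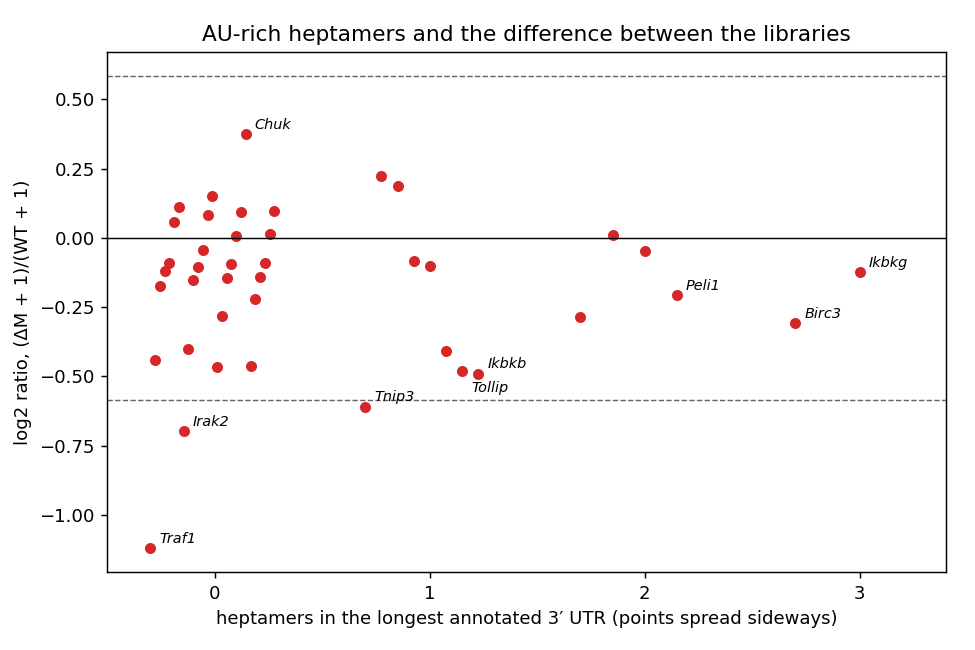
Log2 ratio of ΔM to WT (vertical axis) of the 41 members against the number of heptamers in the longest annotated 3′ UTR (horizontal axis, points spread sideways), with dashed lines at 1.5-fold. *Traf1* and *Irak2* lie in the column of 0 heptamers, and *Birc3* and *Ikbkg* in that of 3.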

How the data were processed

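RNA-Seq was measured in 1 library of WT and 1 library of ΔM BMDMs. Per the study's methods, reads were trimmed with Cutadapt, mapped to mm9 with Segemehl and kept where unique. The authors calculated expression with Cufflinks on Ensembl exons and deposited the values as FPKM, with 2 decimals and 1 value per gene. FPKMs are no counts and were given no count model, and 1 library per genotype allows no test. Of the 37451 gene identifiers, 37039 matched the GENCODE M1 annotation of mm9; 1 gene had no number in ΔM.

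Log2 ratios, with 1 FPKM added to both values, were computed where both libraries averaged 1 FPKM or more, and 1.5-fold refers to this scale. Depth was estimated from low FPKMs of single-transcript genes as the number of fragments, with a mean length of 200 nt, that makes them whole multiples of 1 fragment. This held for 90.3% of such values in WT and 92.4% in ΔM within 0.0055 FPKM, where the tolerance alone gives 31.4% and 28.1%. The estimate was tested on 3 simulated libraries. Counting intervals (95%, Poisson) used the median annotated transcript length, so they are approximate, and too wide where the main transcript is longer. Fragments carry no molecular identifiers.

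The members, role groups and lists of genes were chosen with earlier results of these data known. The named genes are all members, *Zfp36*, *Tlr4*, other pathway genes at least 1.5-fold apart and the highest of each marker list; full values are given for members at least 1.5-fold apart and for the highest and lowest of each role. Genes named for overlapping exons, *Cd3e* and *Irf5* were chosen after values were seen. Alternatives covered the pseudocount, the filter, centring, the fold and the counting intervals. Windows of 100 nt, every 50 nt along the longest transcript, were aligned to mm9 with minimap2 2.31. The scripts ran under Python 3.11.15 with scipy 1.17.1, pandas 2.3.3 and numpy 2.4.6, and drew with matplotlib 3.10.9.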

Additional observations from a re-analysis of the deposited data

How the results depend on the processing

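No paired analysis was possible because each genotype has 1 library, so that leaving out a library was impossible too. Ratios of single members were recomputed 151 times. Of these, 150 moved by less than their counting error, and 0 of those past 1.5-fold changed direction. Many of these outcomes were fixed in advance. The 41 ratios without a filter on low values and the 28 with a minimum mean of 10 FPKM could not change. Centring on the median (0.04) of genes averaging 10 FPKM or more shifted 41 ratios by the same amount. A pseudocount of 0.1 FPKM acted on each of 41 ratios separately, and all 41 stayed within their counting error. *Tnip3* became -0.65 on centring, which also turned 3 ratios near 0 below it. With a minimum mean of 10 FPKM fewer genes remained. The median of the TRAF genes, then *Traf1* and *Traf2* only, was -0.76, below the inhibitors (-0.47). That of the adaptors, then *Myd88* alone, was 0.15. The ubiquitin genes had -0.26 and the other pathway genes -0.23. With a pseudocount of 0.1 FPKM, 4 members were at least 1.5-fold lower, *Tab3* (-0.66) being added. At a fold of 2, 1 member was lower in ΔM. By counting intervals that do not overlap, 17 members were lower and 3 higher. For genes under about 2 FPKM the counting error was wide at the median annotated lengths used.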
